A study of Mus musculus with 6 samples.

Results

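The genes described here are 10 of the 19938 measured on the arrays: the zinc importers Slc39a4, Slc39a1, Slc39a6, Slc39a7, Slc39a8 and Slc39a10, the zinc exporter Slc30a1, the metallothioneins Mt1 and Mt2, and Tonsl, which lies close to Slc39a4 in gene order. Slc39a4 and Tonsl were chosen by their array values, because they were higher in Bach2 knockout than in wildtype thymocytes, so their differences between the genotypes are given as a description, without a test. The other 8 genes were taken by function for comparison. Each gene is represented by the probe set with the highest mean among those annotated with its symbol alone, and 10 of 10 genes had such a probe set.

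On the knockout arrays Slc39a4 was 2.42-fold and Tonsl 1.71-fold higher. The other 28 zinc transporter, metallothionein and zinc sensor genes differed by at most 0.37 on the log2 scale in either direction, and 0 of them passed the test (limma, 2 at an unadjusted p under 0.05). Of the 21 tested genes around Slc39a4 and Tonsl, 0 passed it. Over all genes tested, 0.567% passed and 6.91% had an unadjusted p under 0.05. For lists of this size, 0 called is near that share.

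The RNA came from CD4 single-positive thymocytes of C57BL/6 males, a late stage of T cell development in the thymus, named for CD4 without CD8. Bone marrow depleted of mature lineages was taken from donors 8 weeks old, either lacking Bach2 (Ly5.1-) or wildtype (Ly5.1+), mixed in equal parts and given to lethally irradiated Rag1 knockout hosts of the same age, which make no T cells of their own. The cells were sorted 2 months later by the Ly5.1 allele, which therefore always went with the genotype, and the study's design text gives the 6 samples, 3 of each genotype, as taken from separate mice. Bach2 encodes a transcriptional repressor, and the labels do not name the deleted part. In this bulk RNA, a change in the mix of sorted cells and a change of RNA per cell cannot be told apart.

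Zinc enters the cytosol through transporters of the ZIP family, encoded by the Slc39a genes, and leaves it through those of the ZnT family, encoded by the Slc30a genes. Metallothioneins are small cysteine-rich proteins that bind spare zinc and copper. Cytosolic zinc is sensed by the transcription factor Mtf1, which binds metal response elements in DNA and induces Mt1, Mt2 and Slc30a1. Zinc is needed in T cells for many DNA-binding proteins and for the clasp that holds the kinase Lck to CD4.

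The promoter of Mt2 is shown because it carries the motif through which zinc is read out, in capitals on either strand. These are the 250 bases before the start of the gene, from RefSeq (GRCm38.p6, chr8:94172368-94172617, plus strand).

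Mt2: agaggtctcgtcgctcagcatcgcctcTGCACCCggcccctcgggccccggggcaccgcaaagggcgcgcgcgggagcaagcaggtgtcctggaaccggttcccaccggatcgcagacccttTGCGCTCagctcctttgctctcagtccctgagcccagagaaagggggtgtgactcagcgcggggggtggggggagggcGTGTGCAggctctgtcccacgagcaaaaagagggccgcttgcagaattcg

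The capitals mark the core of the metal response element, searched as TGCACNC and TGCGCNC on both strands. RefSeq windows from 250 bases before to 50 after the start were at hand for 7 of the 10 genes, and Slc39a4, Tonsl and Slc39a6 had no entry. The Mt2 window held 4 cores, the Mt1 window 3 and the Slc30a1 window 2. Of 32851 such windows in the table, 25.7% held at least 1 core and 1.97% at least 3. The core of Mt1 before the start and that of Slc30a1 before the start are shown with 10 bases on each side, so that they can be set beside those of Mt2 (plus strand, chr8:94179056-94179082 and chr1:191906728-191906754).

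Mt1: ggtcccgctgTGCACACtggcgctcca

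Slc30a1: cgggggttccGAGTGCAaagcaaagtt

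Among the importers, 1 of 2 windows of Slc39a8 held a single core, and the windows of Slc39a1, Slc39a7 and Slc39a10 held 0. Bach2 and the AP-1 factors bind cores of the form TGANTCA, which 7.81% of all windows held on either strand. Of the member windows, that of Mt2 held 1, 79 bases before the start, and it did not overlap a metal response core. The longer Maf recognition element (the AP-1 type core preceded by TGC) was in 0.423% of all windows and in 0 of the members' windows. These matches describe letters in a window and say nothing of binding in these cells.

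The arrays themselves need a short account. The values are on a log2 scale, with array medians of 4.93 to 4.97. Wildtype replicate 2 stood somewhat apart, with dim genes lower (mean 3.60 against 3.65 to 3.74 on the other 5 arrays) and bright genes higher (7.15 against 7.07 to 7.10). Bach2 read 7.89, 8.20 and 8.05 on wildtype and 6.50, 6.42 and 6.52 on knockout replicates 1 to 3. Cd4 was between 10.33 and 10.43 on all 6 arrays. The CD8 genes Cd8a and Cd8b1 ranged from 7.66 to 8.90 and from 8.77 to 9.55, also above the table median, and both were highest on knockout replicate 3. Above the table median of 4.94 lay 11 of 11 measured genes of CD4 single-positive identity. By limma 0 of them were called (2 at an unadjusted p under 0.05), against 0.567% (6.91%) of all genes. The groups did not overlap for 3 lower and 0 higher genes, against 11.7% of all genes. These were Gata3 (-0.26), Klf2 (-0.23) and Ccr7 (-0.15). Of the 11 differences, 4 were above 0 and 7 below.

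Slc39a4, known as ZIP4, is the zinc importer that takes up dietary zinc in the gut, and its loss in people causes the zinc deficiency acrodermatitis enteropathica. Its probe set (10430006) read 5.50, 4.98 and 5.52 on wildtype and 6.65, 6.59 and 6.58 on knockout replicates 1 to 3. The groups did not overlap, the knockout arrays lay close together, and wildtype replicate 2 was the lowest array. The means were 5.33 ± 0.31 and 6.61 ± 0.04 (SD, n = 3 each), 1.28 higher in the knockout on the log2 scale or 2.42-fold. Without wildtype replicate 2 the difference was 1.10. It ranked 16 among the differences of all 19938 genes, counted from the largest rise.

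Tonsl encodes a scaffold protein that works with Mms22l at stalled or broken replication forks, where it binds newly made histones and helps homologous recombination. Its probe set (10430032) read 4.75, 4.65 and 4.61 on wildtype and 5.51, 5.49 and 5.33 on knockout replicates 1 to 3. The groups again did not overlap, and the wildtype values lay below the table median while the knockout values lay above it. The means were 4.67 ± 0.07 and 5.44 ± 0.10 (SD, n = 3 each), a difference of 0.77 or 1.71-fold, which ranked 56. Both genes were among the 0.351% of genes that limma called higher at an adjusted p under 0.05, which is the ground on which they were chosen. Neither was called when all 35556 probe sets were in the fit, nor without moderation of the variances.

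**Figure D1:**
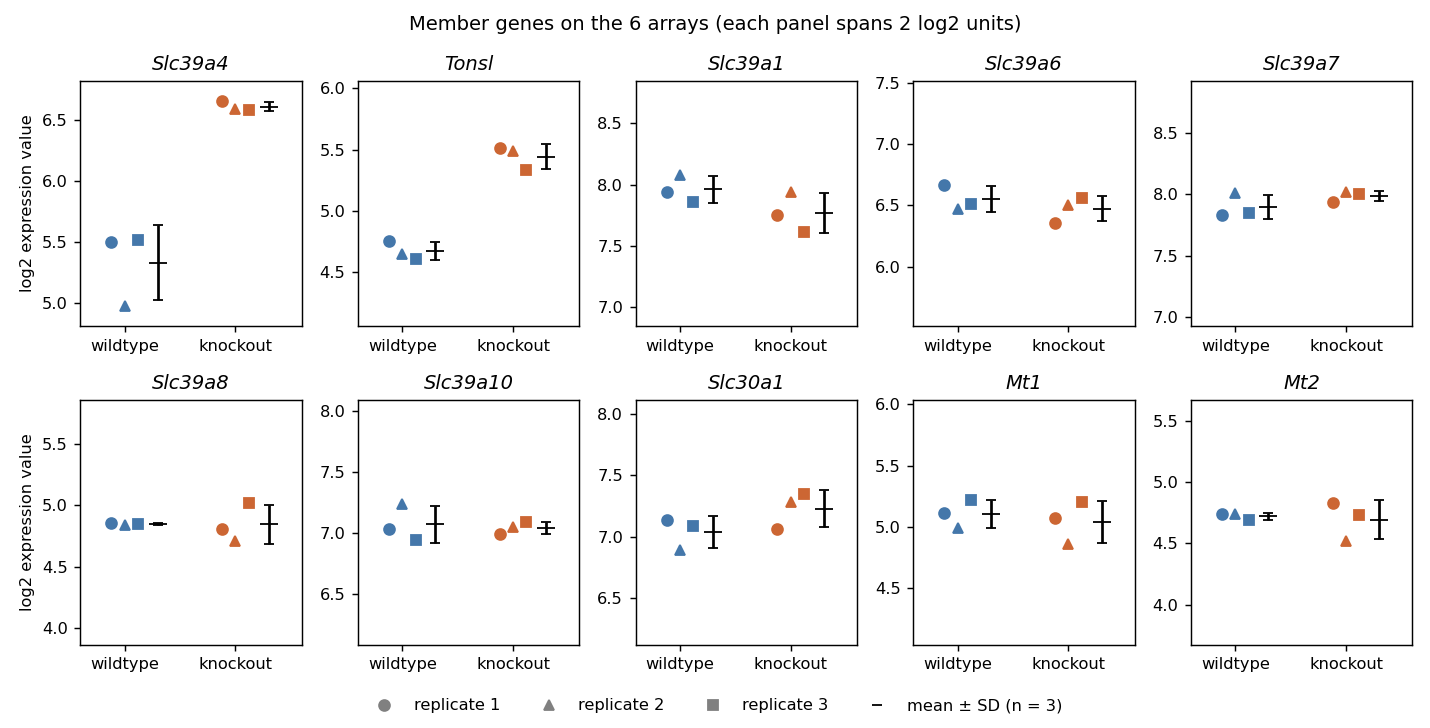
Log2 expression values of the 10 genes (vertical axes, each spanning 2 log2 units at a different level) in wildtype and knockout arrays, with 1 symbol per replicate and the mean ± SD of 3 arrays at the side. Slc39a4 and Tonsl, chosen for this difference, have knockout values above the wildtype values (6.58 to 6.65 against 4.98 to 5.52, and 5.33 to 5.51 against 4.61 to 4.75), and in the other 8 panels the groups overlap.

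The other importers of the comparison showed no such separation. Slc39a1 (ZIP1), a widely expressed importer of the cell surface, read 7.94, 8.08 and 7.86 on wildtype and 7.75, 7.94 and 7.61 on knockout replicates 1 to 3. Its difference of -0.19 had a 95% interval of -0.45 to 0.06 and did not pass the test (limma, adjusted p = 0.873). Another probe set of Slc39a1, of lower mean, differed by 0.03, so the sign was not shared between them. Slc39a6 (ZIP6), an importer of the LIV-1 subfamily studied in T cell activation, read 6.67, 6.47 and 6.51 on wildtype and 6.36, 6.50 and 6.56 on knockout arrays. The groups overlapped, with an interval of -0.30 to 0.15 for the difference (limma, adjusted p = 0.985). Slc39a10 (ZIP10), the closest relative of ZIP6, was at 7.03, 7.24 and 6.94 against 6.99, 7.05 and 7.09, with an interval of -0.26 to 0.21 (limma, adjusted p = 0.998). Both the highest and the lowest of its values were wildtype.

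Of the 2 importers known for internal membranes, Slc39a7 (ZIP7) releases zinc from the endoplasmic reticulum and Golgi. It read 7.83, 8.01 and 7.85 on wildtype and 7.94, 8.02 and 8.00 on knockout replicates 1 to 3, with an interval of -0.12 to 0.30 (limma, adjusted p = 0.979). Slc39a8 (ZIP8), which is found on lysosomes and the cell surface and also carries manganese, read 4.86, 4.84 and 4.85 on wildtype and 4.81, 4.71 and 5.02 on knockout arrays. Its mean of 4.85 in both genotypes lay under the table median. The knockout values spread on both sides of the wildtype values (interval -0.23 to 0.23, limma, adjusted p = 0.999).

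On the side of export and binding, Slc30a1 (ZnT1), the exporter of the cell surface, read 7.14, 6.89 and 7.09 on wildtype and 7.06, 7.28 and 7.35 on knockout replicates 1 to 3. Knockout replicates 2 and 3 lay above all wildtype arrays, but replicate 1 lay below wildtype replicates 1 and 3. The difference of 0.19 (interval -0.07 to 0.44) did not pass the test (limma, adjusted p = 0.885). Mt1 read 5.11, 4.99 and 5.22 on wildtype and 5.07, 4.86 and 5.20 on knockout arrays (interval -0.32 to 0.19, limma, adjusted p = 0.992). Mt2 was at 4.74, 4.74 and 4.69 against 4.83, 4.52 and 4.73 (interval -0.26 to 0.20, limma, adjusted p = 0.998). For these targets of Mtf1, with the metal response cores shown above, the groups overlapped, and Mt2 lay under the table median on average. Over the 8 comparison genes, 0 were called by limma and 0 had an unadjusted p under 0.05, where 0.567% and 6.91% of all genes did.

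The wider pathway was taken from lists of the families, and 29 of 29 listed genes were measured. Of 14 ZIP family genes, limma called Slc39a4 higher, which is the ground on which it was chosen. Among the other 13, 0 were higher and 0 lower, against 0.351% and 0.216% of all genes. In a list of this size, 0 called is near those shares. The other 13 differed by -0.25 to 0.15 with a median of 0.00, beside -0.01 over all genes tested. At the lower end stood Slc39a2, with 5.08, 5.21 and 5.46 on wildtype and 5.12, 4.83 and 5.05 on knockout arrays, which overlap (limma, adjusted p = 0.792). Slc39a9 (ZIP9), an importer of the Golgi, was the other member whose groups did not overlap, at 6.86, 6.76 and 6.87 against 6.98, 6.90 and 7.02. Its difference of 0.14 did not pass the test (limma, adjusted p = 0.901), and groups did not overlap in 11.7% of all genes.

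The mean over the ZIP family was 6.17, 6.15 and 6.22 on wildtype and 6.27, 6.25 and 6.29 on knockout replicates 1 to 3. Without Slc39a4 it was between 6.22 and 6.27 in either genotype, so the separation of the family mean rested on that gene.

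In the ZnT family, 0 of 10 genes were called by limma, 2 had an unadjusted p under 0.05, and the median difference was 0.02. Over all genes, the shares were 0.567% and 6.91%. Slc30a5 (ZnT5), which loads zinc into the early secretory pathway, read 6.72, 6.88 and 6.80 on wildtype and 7.12, 7.17 and 7.23 on knockout replicates 1 to 3. Its groups did not overlap, and the difference of 0.37 ± 0.09 (limma standard error) did not pass over all genes (adjusted p = 0.200). Slc30a4 (ZnT4), which moves zinc into vesicles, was at 6.54, 6.44 and 6.19 against 5.83, 6.22 and 6.02, a difference of -0.37 ± 0.13 (limma, adjusted p = 0.503). Here knockout replicate 2 lay above wildtype replicate 3. Slc30a6 (ZnT6), the partner of ZnT5, was at 6.07, 6.36 and 6.07 against 6.01, 5.91 and 6.32, which overlap.

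Of the metallothioneins and their regulator, 0 of 5 were called by limma and 0 had an unadjusted p under 0.05. The shares of all genes were 0.567% and 6.91%. The differences of the 5 ran from -0.07 to 0.04. Mtf1 read 7.34, 7.48 and 7.30 on wildtype and 7.12, 7.37 and 7.43 on knockout arrays (limma, adjusted p = 0.992). Mt3, the metallothionein of the brain, and Mt4, that of stratified epithelia, ranged over the 6 arrays from 5.54 to 5.97 and from 3.91 to 4.28.

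**Figure D2:**
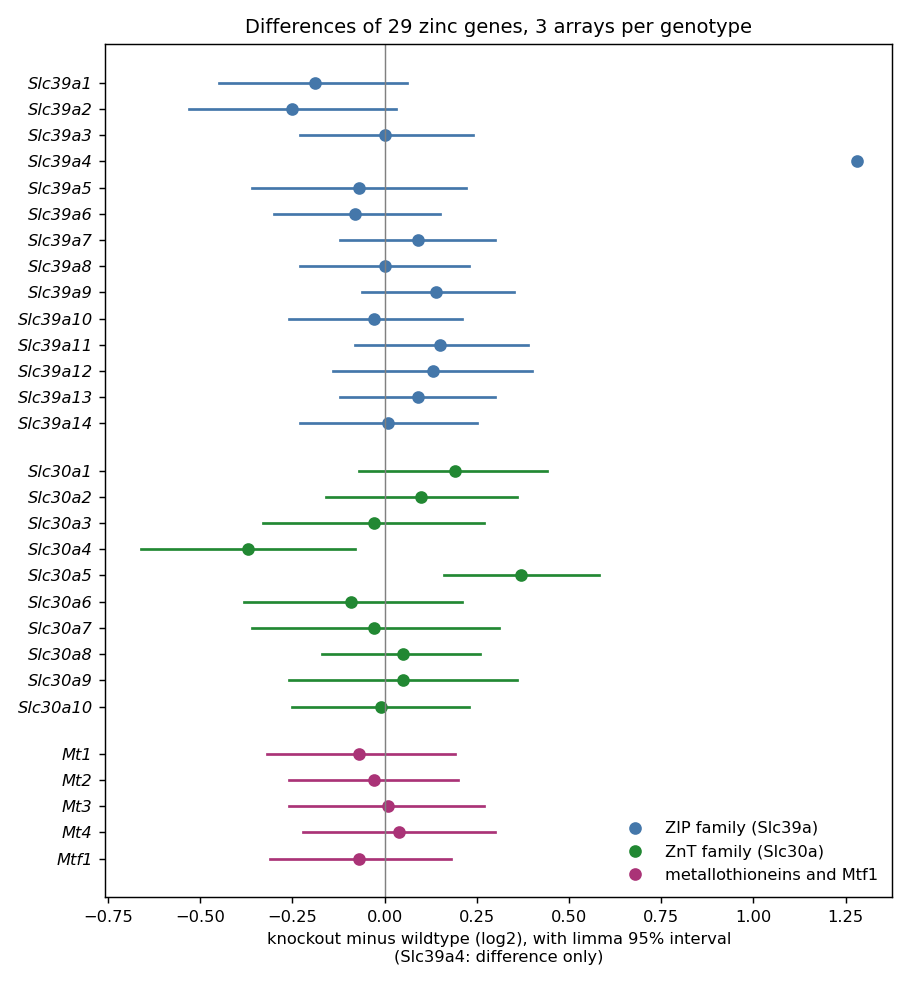
Knockout minus wildtype difference on the log2 scale (horizontal axis) for the 29 genes of the ZIP, ZnT and metallothionein lists, with points for the differences and lines for the 95% interval from limma over 3 arrays per genotype. Slc39a4, which was chosen for its difference and has no interval here, lies at 1.28, and the other 28 lie between -0.37 and 0.37.

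The place of Slc39a4 and Tonsl in gene order was then examined. In RefSeq order the only tested gene between them is Vps28, a subunit of the ESCRT-I complex that sorts membrane proteins into endosomes. Vps28 read 10.10, 9.94 and 10.12 on wildtype and 10.25, 10.14 and 10.17 on knockout replicates 1 to 3. Its groups just failed to overlap, and the difference was 0.14 ± 0.10 (limma standard error, adjusted p = 0.927). On the far side of Slc39a4, Cpsf1, the large subunit of the mRNA cleavage and polyadenylation factor, was at 7.14, 7.27 and 7.03 against 7.34, 7.42 and 7.23, which overlap (difference 0.19, limma, adjusted p = 0.852). On the far side of Tonsl, Cyhr1 was at 7.14, 7.10 and 7.11 against 7.30, 7.11 and 7.22 (difference 0.09, limma, adjusted p = 0.975).

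Taking in 10 tested genes on each side and the gene between, 0 of the 21 neighbours were called by limma and 0 had an unadjusted p under 0.05. Their differences ran from -0.17 to 0.27 with a median of 0.07, and 16 of 21 were above 0. Over all genes the median was -0.01, and 9204 of 19938 were above 0. Of all genes, 0.567% were called and 6.91% had an unadjusted p under 0.05. Besides Vps28, the other neighbour without overlap was Adck5 (difference 0.16, limma, adjusted p = 0.867). It was at 6.46, 6.54 and 6.54 on wildtype and 6.65, 6.72 and 6.63 on knockout arrays. That made 2 of 21 neighbours, near the 11.7% of all genes whose groups did not overlap. The neighbour with the smallest p was Dgat1, an enzyme of triglyceride synthesis, which differed by 0.22 ± 0.12 (limma standard error, adjusted p = 0.850). With 20 genes on each side, 0 of 41 neighbours were called, 1 had an unadjusted p under 0.05, and the median was 0.05.

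**Figure D3:**
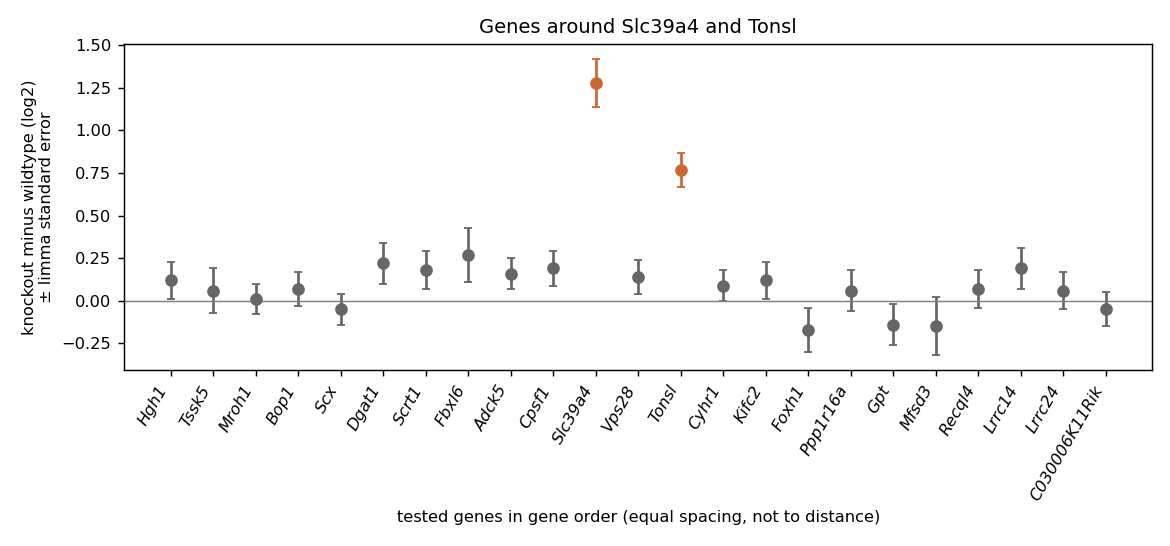
Knockout minus wildtype difference on the log2 scale (vertical axis, with the limma standard error) for the 23 tested genes from 10 before Slc39a4 to 10 after Tonsl, equally spaced in RefSeq gene order. Slc39a4 at 1.28 and Tonsl at 0.77 are coloured. Both were chosen for this difference, so their standard errors are no test of it. Vps28 between them is at 0.14, and the 21 neighbours lie between -0.17 and 0.27.

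The genes that work with Tonsl at replication forks were compared as well. Of 18 measured, Tonsl was higher, and among the other 17 limma called 0, with 0 at an unadjusted p under 0.05. The shares of all genes were 0.567% called and 6.91% at an unadjusted p under 0.05. In a list of this size, 0 called is near that share. These 17 differed by -0.19 to 0.17, with a median of -0.01. Mms22l, the direct partner of Tonsl, read 4.79, 5.04 and 4.71 on wildtype and 5.14, 4.69 and 4.99 on knockout arrays, which overlap (limma, adjusted p = 0.985). The members with the smallest p were Mcm2, a subunit of the replicative helicase and histone carrier (-0.19), and Rpa1, which binds single-stranded DNA (0.17). In the cell cycle list, 0 of 13 genes were called and 2 had an unadjusted p under 0.05, Aurkb at -0.28 and Top2a at -0.44 (limma, adjusted p = 0.529 and 0.602). Of the 13 differences, 2 were above 0 and 11 below, with a median of -0.12, beside -0.01 over all genes. The groups did not overlap for 1 of the 13, Aurkb, against 11.7% of all genes. The mean of that list was highest in wildtype replicate 2, at 6.51, and 5.96 to 6.23 on the other 5 arrays. On that array Tonsl was at 4.65, and the part of cell cycle differences in its values was not tested.

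Likeness of pattern was measured as the root mean square distance over the 6 arrays, after subtracting each gene's own mean. The nearest to Slc39a4 were Rflnb (0.133 on the log2 scale), Rundc3b (0.184) and Art4 (0.198), where the median over all genes was 0.675. Rflnb read 8.86, 8.65 and 8.81 on wildtype and 10.02, 10.14 and 10.12 on knockout arrays, and it shared the dip in wildtype replicate 2. The nearest to Tonsl were Eya2 (0.067), S100a11 (0.070) and Rnf19a (0.076), where the median was 0.416. S100a11 was at 10.28, 10.27 and 10.27 against 11.05, 11.03 and 11.04. Between Slc39a4 and Tonsl the distance was 0.309, which placed Tonsl at rank 21 for Slc39a4, and Slc39a4 at rank 803 for Tonsl. These distances come from the same 6 arrays that chose the genes and are a description.

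**Figure D4:**
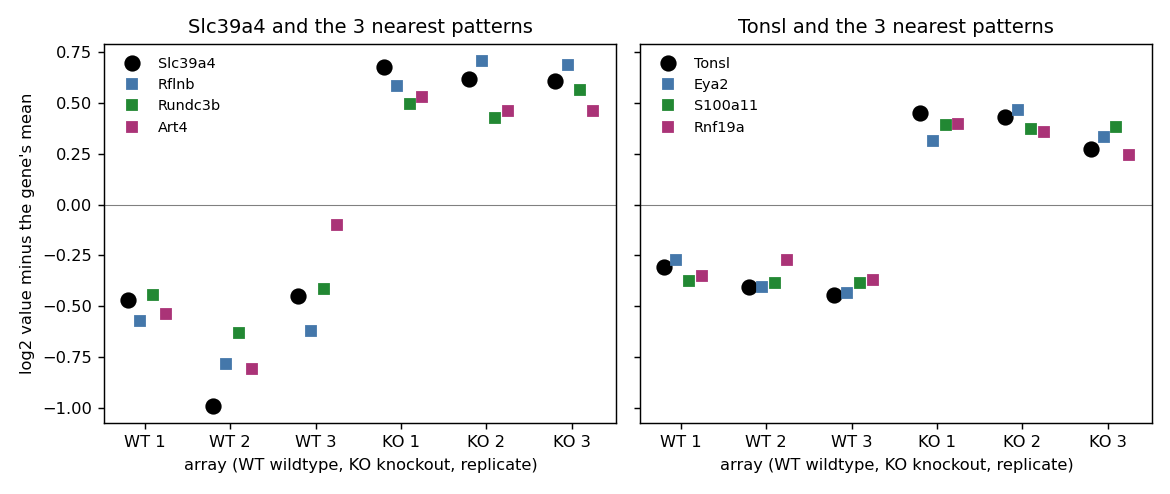
Log2 value minus the gene's own mean over the 6 arrays (vertical axis) by array, for Slc39a4 and Tonsl (black) and the 3 genes nearest to each in pattern. The points of Rflnb follow those of Slc39a4 with a root mean square distance of 0.133, and those of Eya2 follow Tonsl with 0.067.

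Marker genes of cells that a CD4 single-positive gate may let through were read on the same arrays. Of 8 regulatory T cell markers, 4 were lower in the knockout by limma and 0 higher (6 lower when wildtype replicate 1 was left out, 1 for wildtype replicate 3, 2 for knockout replicate 2 and 3 for each other array), where 0.216% of all genes were lower. At an unadjusted p under 0.05 there were 7 of 8, against 6.91% of all genes, and in 7 of 8 the groups did not overlap, against 11.7%. The 4 called were Foxp3 (-2.43), Il2ra (-1.93), Lrrc32 (-1.86) and Ikzf2 (-1.51). The list means were 7.53 to 8.34 for wildtype and 6.65 to 6.79 for knockout arrays. Within wildtype, the mean of that list was 7.53, 8.30 and 8.34 on replicates 1 to 3. On these arrays Slc39a4 was at 5.50, 4.98 and 5.52, and Tonsl at 4.75, 4.65 and 4.61. Of 10 macrophage and monocyte markers, Lyz2 was higher by limma, against 0.351% of all genes, and the rest were not called. An unadjusted p under 0.05 was seen for 4, against 6.91%: Lyz2, C1qc and C1qa higher, and Itgam lower. Itgam differed by -0.33 without overlap of the groups (limma, adjusted p = 0.528). In this list 7 differences were above 0 and 3 below. The complement genes of tissue macrophages C1qc, C1qa and C1qb differed by 0.71, 0.42 and 0.35 (limma, adjusted p = 0.158, 0.325 and 0.807), and for C1qc and C1qa the groups did not overlap. Of the 10, 6 lay at or below the table median, Adgre1 (2.97 to 3.21) among them. The call of Lyz2 was lost without wildtype replicate 2 or 3 or knockout replicate 1 or 2 (limma, adjusted p from 0.0821 to 0.153). The means of that list were 4.43 to 4.64 in wildtype and 4.61 to 5.04 in knockout arrays, with knockout replicate 1 the highest. Of 8 markers of double-positive and immature thymocytes 0 were called, against 0.567% of all genes. An unadjusted p under 0.05 was found for 4, against 6.91%. The groups did not overlap for 1 higher and 1 lower marker, against 11.7% of all genes. The recombinase gene Rag1 differed by 1.27 with overlap of the groups, and Arpp21 by 0.95 and Cd24a by -0.58 without it (limma, adjusted p = 0.591, 0.305 and 0.264). The list means were 6.65 to 6.96 on wildtype and 6.72, 7.26 and 7.90 on knockout replicates 1 to 3. On these 3 knockout arrays Slc39a4 was at 6.65, 6.59 and 6.58 and Tonsl at 5.51, 5.49 and 5.33. The lists of B cells (5 measured), dendritic cells (6), thymic epithelium (6) and erythroid cells (4) held 0 called genes and 0 at an unadjusted p under 0.05, with means from 3.94 to 5.08 over the arrays. The part of the regulatory T cell, macrophage and immature thymocyte markers in the values of Slc39a4 and Tonsl was not tested.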

How the data were processed

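The authors deposited a table with 1 value for each probe set on each array. RMA, a method that corrects, normalizes and summarises probe signals, and Partek are named in the submitters' processing notes without versions. The values were read as log2 from their range, since the deposited table states no scale; no genome build is named. Because RMA equalises the arrays' distributions, a change common to the whole transcriptome is invisible here. Of 35556 probe sets, 21789 carried 1 symbol in the platform annotation, 1621 several and 12146 none listed. Those with 1 symbol gave 19938 genes, 19855 of them matched to RefSeq (GRCm38.p6) for gene order. Knockout minus wildtype differences were fitted over all of them in R 4.3.3 by limma 3.58.1, using lmFit with eBayes and two-sided tests, and p-values were Benjamini-Hochberg adjusted with a threshold of 0.05. The fit was tried on simulated data with independent normal noise and no array effects. That trial cannot show how the fit holds on these arrays. Arrays give no read depth, and 3 per group limit the precision. The 10 genes and the lists (131 genes, 11 not measured) were chosen with earlier results of these data known. The genes named are the 10, Bach2 as a check, the called genes of the lists, and the 3 nearest patterns. Other genes of the lists and of the neighbourhood are named too, without a fixed rule. Motifs and figures used Python 3.11.15 and matplotlib 3.10.9. Alternatives were other priors, no moderation, array weights, centring, quantile normalization, a filter on dim genes, averaged or all probe sets, a wider neighbourhood, a replicate block and leaving out each array.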

Additional observations from a re-analysis of the deposited data

How the results depend on the processing

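Slc39a4 and Tonsl were chosen by their call on these arrays, so their values under the alternatives are a description and support nothing. With all 35556 probe sets in the fit, or without moderation, neither was called at differences of 1.28 and 0.77, and 0 zinc genes and 0 genes of the neighbourhood were. Leaving out each array gave 1.10 to 1.37 for Slc39a4 and 0.74 to 0.83 for Tonsl. The 1 zinc gene and 2 genes of the neighbourhood called higher on leaving out each array, with 0 lower, are these chosen genes again. Near 0, the sign turned without a call for Slc39a8 (0.0013 after median centring, 0.00058 after quantile normalization, and -0.0858 to 0.0662 on leaving out each array), Slc39a10 (0.0325 with array weights, -0.0882 to 0.0593 on leaving out each array), Mt1 (-0.14 to 0.0258) and Mt2 (-0.10 to 0.0557). Over all genes, 70 were higher and 43 lower. All probe sets gave 29 higher and 8 lower, and no moderation 1 and 0. The prior that follows expression level gave 100 and 78, and array weights 95 and 64. Leaving out each array gave 29 to 82 higher and 18 to 66 lower. The fewest of these came without wildtype replicate 3, and the cause was not tested. With the replicate number as a block the differences were again 1.28 and 0.77, and 0 of the other 8 genes were called. Same-numbered arrays deviated together at r = 0.213, 0.113 and -0.065 over all genes, so the numbers were not taken as pairs. Signal near the median limits Slc39a8, Mt1, Mt2 and the wildtype values of Tonsl.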
